A study of Homo sapiens with 2 samples.

Results

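ATF4 is the transcription factor through which cells answer amino acid shortage and endoplasmic reticulum stress, and 32 genes of its pathway were followed here: 6 transcription factors, 6 enzymes of amino acid and one-carbon metabolism, 3 other targets and 17 cytosolic aminoacyl-tRNA synthetases. They were chosen by name as ATF4 pathway and cytosolic synthetase genes, with no threshold on their counts but with earlier results of these data known, and found by Entrez number among 25702 counted features. All 32 were found and all 32 had at least 10 counts over the 2 libraries, the minimum used for a ratio. The phenylalanine enzyme, made of FARSA and FARSB, is not in the list and is given with the rest of the pathway below.

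The cells were REH, a line derived from human B-cell precursor acute lymphoblastic leukaemia (REH-R in the labels). The PAX5 group carried a tet-regulated PAX5-IRES-GFP cassette, in which an internal ribosome entry site lets one transcript encode PAX5, a transcription factor of the B lineage, and green fluorescent protein. The control group carried a tet-regulated IRES-GFP cassette without PAX5. Doxycycline (1 µg/mL, 3 days) and sorting for GFP-positive cells were the same in both groups, so drug, sort and GFP are shared. Each group was 1 library, and the labels do not say whether the lines were clones or pools. No difference below therefore has a replicate check, no p-value is given, and the 2 libraries are compared, not the conditions.

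The PAX5 library held 11944765 counts and the control library 10997864. PAX5 (Entrez 5079), the check of the labels, had 8319 counts against 2660, a ratio of 2.90-fold (2.78 to 3.03), so the control cells also held PAX5 transcript. All 9 markers of B-cell precursors that were examined had at least 10 counts in both libraries together, with summed levels of 6601 and 6992 CPM (counts per 1000000 scaled counts). Of 6 T-cell markers 5 had 0 counts in both libraries, and 3 erythroid markers had 0 counts throughout. The 5 myeloid markers summed to 22.3 CPM with PAX5 and 32.0 CPM in the control, the 3 natural killer markers to 2.27 and 4.17, and the 3 fibroblast markers to 9.66 and 8.52. NKG7 made the whole natural killer sum, and the other 2 markers of that list had 0 counts in both libraries. COL1A1 made nearly all of the fibroblast sum, at 9.66 and 8.43 CPM. The part of these low levels in any ratio below was not tested.

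As background, the pathway starts with kinases that phosphorylate the translation factor eIF2 when amino acids are short, when unfolded protein collects in the endoplasmic reticulum, when haem is short or when double-stranded RNA is present. General translation then falls, while ATF4 messenger RNA, whose upstream reading frames otherwise hold it back, is translated more. ATF4 binds DNA as a dimer with C/EBP partners and switches on genes for amino acid synthesis, uptake and tRNA charging, and with prolonged stress also DDIT3, TRIB3 and CHAC1. The control of ATF4 lies largely in translation, so a count of its messenger RNA does not give its protein. Aminoacyl-tRNA synthetases join each amino acid to its tRNA and are needed by every dividing cell. Many of the cytosolic ones are targets of ATF4.

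The element that ATF4 and C/EBP dimers are known to bind, the C/EBP-ATF response element, has the core TGATGNAA, where N is any base. It was searched on both strands in the RefSeq promoters (GRCh38.p14, 250 bases before to 50 after each gene start). Of 32 members 27 had a promoter in that table, and 11 of these held the core, 40.7%. Among all 15842 protein-coding genes with a promoter 571 held it, 3.60%, and among the 9920 of them with at least 10 counts here 268 did, 2.70%. The form TGATGCAA, a special case of the same core, was found in 8 of the 27 members, against 0.903% of protein-coding genes. A match is a description of these letters and not evidence of binding in REH cells. Members were chosen by name as ATF4 pathway and synthetase genes, so a higher share of this core among them may follow from that choice. The other 16 members with a promoter had no match. The 11 matches are shown as a description of sequence. Each line gives 30 bases, 5′ to 3′, on the strand on which the core reads TGATGNAA, with the core in capitals.
ASNS, chr7:97872458-97872487, minus strand: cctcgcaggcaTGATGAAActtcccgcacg
CHAC1, chr15:40953251-40953280, minus strand: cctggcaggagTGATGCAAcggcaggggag
ATF3, chr1:212565205-212565234, plus strand: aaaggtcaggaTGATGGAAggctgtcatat
CEBPG, chr19:33374060-33374089, plus strand: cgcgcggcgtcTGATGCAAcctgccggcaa
AARS1, chr16:70289675-70289704, plus strand: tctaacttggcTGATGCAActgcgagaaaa
CARS1, chr11:3057407-3057436, plus strand: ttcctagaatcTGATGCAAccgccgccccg
GARS1, chr7:30594834-30594863, minus strand: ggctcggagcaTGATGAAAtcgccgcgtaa
IARS1, chr9:92293692-92293721, plus strand: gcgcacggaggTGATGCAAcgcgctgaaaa
MARS1, chr12:57488053-57488082, minus strand: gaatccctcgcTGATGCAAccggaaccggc
NARS1, chr18:57621804-57621833, minus strand: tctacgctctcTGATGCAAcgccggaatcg
TARS1, chr5:33440956-33440985, minus strand: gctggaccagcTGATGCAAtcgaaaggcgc

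Among the members, the synthetases held the core most often: 7 of the 14 with a promoter in the table had it. In IARS1, CARS1, MARS1, GARS1, TARS1 and NARS1 it lay close to the gene start, beginning 13, 2, 4 and 33 bases before it in the first 4 and at transcribed bases 3 and 15 in the last 2. In AARS1 it began 187 bases before the start. The asparagine synthetase gene ASNS had it 68 bases before the start, CEBPG 42, ATF3 191 and CHAC1 209. Of 14 mitochondrial synthetases with a promoter 1 held the core, YARS2, and of 19 other ATF4 targets 8 did.

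The design sets induced PAX5 against GFP alone, and the question here is whether transcripts of this pathway differed between the 2 libraries. Ratios are the PAX5 library over the control library after scaling, on the log2 scale unless a fold is named, and brackets hold the exact 95% interval for counting error. No member passed the rule of size, an interval bound at or beyond 2-fold, in either direction, where 1.33% of 13532 features with at least 10 counts were higher by it and 0.0517% lower. With the bound at 1.5-fold 1 member was higher, CEBPB, and none lower, against 2.61% and 0.362% of features. Of the 32 members 2 had intervals above 0 and 16 below, against 18.4% and 17.1% of features. Members are abundant, which narrows their intervals. Among the 26 members with at least 1000 counts 1 interval lay above 0 and 15 below, where 28.1% and 25.5% of 5339 such features did. The differences behind these intervals were small: 24 of the 26 had a ratio within 1.2-fold, as 80.7% of features of that abundance did (19.3% were past it, 11.5% higher and 7.85% lower). The other 2, ATF5 and TRIB3, were lower. The median ratio of all 32 members was -0.10, beside -0.01 over all features with at least 10 counts and 0.00 over features with at least 1000.

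**Figure D1:**
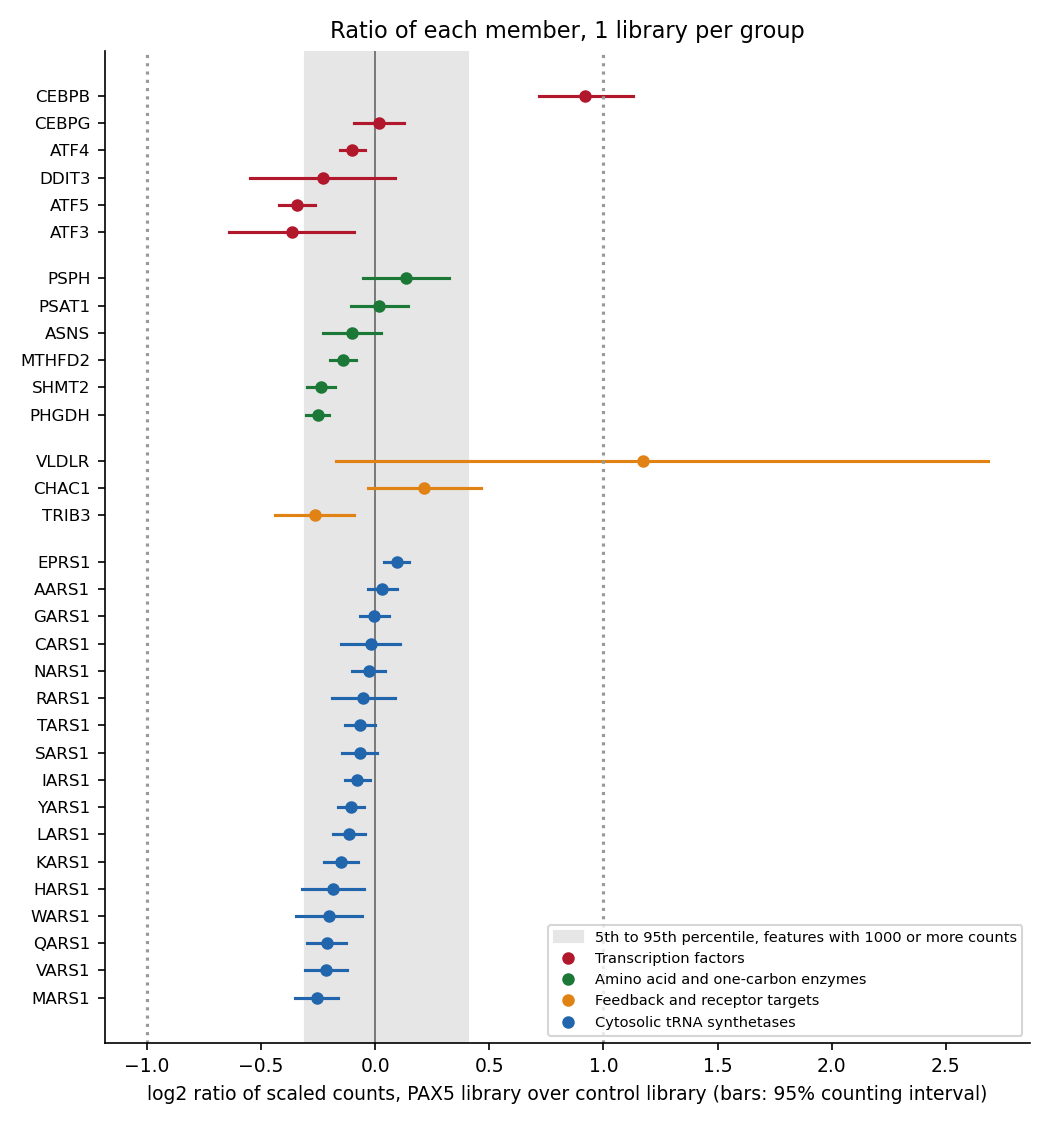
Log2 ratio of scaled counts (PAX5 library over control library, 1 library each) for the 32 members by role, with 95% counting intervals as bars, the 5th to 95th percentile of features with 1000 or more counts (-0.31 to 0.41) shaded, and dotted lines at 2-fold. CEBPB alone has an interval wholly to the right of the shaded range, VLDLR has a wide interval that spans 0, and all 17 synthetases lie between -0.26 and 0.09.

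Among the transcription factors, ATF4 itself was slightly lower and CEBPB was higher. ATF4 had 5187 counts with PAX5 against 5156 in the control, a ratio of -0.10 (-0.16 to -0.04) after scaling. That is 0.933-fold, and the interval lay just below 0. CEBPB, a C/EBP factor and dimer partner of ATF4 that also acts in myeloid and inflammatory gene control, had 592 counts against 290. Its ratio was 1.89-fold (1.64 to 2.19), 0.92 on the log2 scale (0.72 to 1.13), at percentile 95.7 of features with at least 10 counts. The interval reached 2-fold but its lower bound did not. In scaled units its level was 49.7 CPM with PAX5 against 26.3 CPM in the control.

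The other C/EBP member did not share this difference. CEBPG, which forms dimers with ATF4, had 1415 counts against 1297 and a ratio of 0.02 (-0.09 to 0.13). ATF5, a close relative of ATF4 that is also under translational control, had 2447 counts against 2878 and a ratio of -0.34 (-0.42 to -0.26). ATF3, a stress-induced factor that is itself an ATF4 target, had 205 counts against 245 and a ratio of -0.37 (-0.64 to -0.09). DDIT3, which encodes the stress factor CHOP, had 160 counts against 174 and a ratio of -0.23 (-0.55 to 0.09), an interval that spans 0. The 6 factors thus had 1 interval above 0, 3 below and 2 across it, with a median ratio of -0.17 and a mean of -0.02. Among features with at least 10 counts, 18.4% of intervals lay above 0 and 17.1% below.

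In bulk RNA a higher level in each cell cannot be told apart from more cells of a kind that expresses the gene. CEBPB is abundant in myeloid cells, whose 5 markers summed to 22.3 CPM with PAX5 and 32.0 CPM in the control. ITGAM alone made 18.7 and 25.2 CPM of these sums, so they rest largely on 1 gene. The part of such cells in the CEBPB ratio was not tested. In the GENCODE annotation 231 exonic bases of CEBPB, 11.8%, are shared with the antisense gene CEBPB-AS1. The strand setting of the counting is not given in the sources used here, so reads of the pair cannot be told apart there.

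The serine and one-carbon enzymes showed a small spread around 0, with the most abundant lower. PHGDH makes the first committed step of serine synthesis and had 6008 counts against 6638, a ratio of -0.25 (-0.30 to -0.20). The next enzymes of that path did not share the direction: PSAT1, the aminotransferase, had 1109 counts against 1016 and a ratio of 0.02 (-0.11 to 0.14), and PSPH, the phosphatase that releases serine, had 513 against 433 and 0.14 (-0.05 to 0.32). Both intervals span 0. SHMT2, the mitochondrial enzyme that turns serine into glycine and a folate-bound carbon unit, had 3975 counts against 4345 and a ratio of -0.24 (-0.30 to -0.17). MTHFD2, which works downstream of SHMT2 in mitochondria, had 4994 counts against 5112 and a ratio of -0.14 (-0.20 to -0.09). ASNS, the enzyme that makes asparagine, had 1020 counts against 1015 and a ratio of -0.10 (-0.23 to 0.02). So 3 of the 6 intervals lay below 0 and none above, and every one of the 6 ratios was within 1.2-fold. Among features with at least 10 counts, 17.1% of intervals lay below 0 and 18.4% above.

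The 3 other targets went different ways. TRIB3, a pseudokinase that restrains ATF4, had 526 counts against 586 and a ratio of -0.26 (-0.44 to -0.09). CHAC1, an enzyme that degrades glutathione, had 309 counts against 247 and a ratio of 0.21 (-0.03 to 0.46). VLDLR, a lipoprotein receptor, had 17 counts against 7, a ratio of 2.25-fold with an interval from 0.888-fold to 6.42-fold. VLDLR was the member with the fewest counts. Its interval had a half-width of 1.43 on the log2 scale, so only a large difference could be told from counting error.

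All 17 cytosolic synthetases lay within 1.2-fold. Their counts ran from 762 against 812 for WARS1, which charges tryptophan, to 6119 against 5317 for EPRS1, which charges both glutamate and proline. Summed over the 17, the PAX5 library had 49972 counts (4198 CPM) against 48609 (4404 CPM), a ratio of -0.07 (-0.09 to -0.05). The median of their ratios was also close to 0, at -0.08. Of the 17, 15 had a ratio below 0 and 2 above it. All 17 had at least 1000 counts, and 2646 of 5339 such features had a ratio below 0.

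EPRS1 alone had an interval above 0, at 0.09 (0.04 to 0.15). At the other end, MARS1 (methionine) had 1743 counts against 1931 and a ratio of -0.26 (-0.35 to -0.16), the lowest of the 17. VARS1 (valine) had 1872 counts against 2014 and a ratio of -0.21 (-0.31 to -0.12), and QARS1 (glutamine) had 2092 against 2248 and -0.21 (-0.30 to -0.13). These 3 had the lowest ratios, each 0.837-fold to 0.863-fold, but their intervals overlap those of WARS1 and HARS1. WARS1 had a ratio of -0.20 (-0.35 to -0.06), and HARS1 (histidine), with 868 counts against 915, had -0.19 (-0.32 to -0.05). KARS1 (lysine) had 2953 counts against 3036 and a ratio of -0.15 (-0.22 to -0.08), LARS1 (leucine) had 3423 against 3438 and -0.12 (-0.18 to -0.05), and YARS1 (tyrosine) had 4932 against 4929 and -0.11 (-0.17 to -0.05). IARS1 (isoleucine), with 5348 counts against 5236, had -0.08 (-0.13 to -0.02). These 6 and the 3 before them are the synthetases with an interval below 0, where 25.5% of features with at least 1000 counts had one.

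For the remaining 7 the interval spans 0. TARS1 (threonine) had 3742 counts against 3631 and a ratio of -0.07 (-0.13 to 0.00), and SARS1 (serine) had 2787 against 2708 and -0.07 (-0.14 to 0.01). RARS1 (arginine) had 880 counts against 846 and a ratio of -0.05 (-0.19 to 0.09), NARS1 (asparagine) had 3045 against 2882 and -0.03 (-0.10 to 0.04), and CARS1 (cysteine) had 1012 against 952 and -0.02 (-0.15 to 0.11). GARS1 (glycine) had 4167 counts against 3875 and a ratio of -0.00 (-0.07 to 0.06), and AARS1 (alanine) had 4227 against 3839 and 0.03 (-0.03 to 0.09). The widest of these intervals reached down to -0.19, for RARS1.

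Synthetases fall into 2 structural classes with unrelated catalytic domains. The 9 members of class I (CARS1, IARS1, LARS1, MARS1, QARS1, RARS1, VARS1, WARS1 and YARS1) all had ratios below 0, with 7 intervals below 0 and a median of -0.12. The 7 of class II (AARS1, GARS1, HARS1, KARS1, NARS1, SARS1 and TARS1) had 6 ratios below 0, with 2 intervals below 0 and a median of -0.07. EPRS1 joins an enzyme of each class in 1 protein and was counted in neither. The 7 members that sit in the multisynthetase complex (EPRS1, IARS1, KARS1, LARS1, MARS1, QARS1 and RARS1) had 5 intervals below 0 and 1 above, with a median of -0.12. All of these genes had at least 1000 counts. Of 5339 such features 25.5% had intervals below 0 and 28.1% above, and 2646 had a ratio below 0. The difference between the classes was not tested.

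Members with the core TGATGNAA in their promoter had a median ratio closer to 0 than those without, a difference that was not tested. The 11 shown above had a median ratio of -0.03 (range -0.37 to 0.21), with no interval above 0 and 3 below. The 16 without a match had a median of -0.15 (range -0.34 to 1.17), with 2 intervals above 0 and 9 below. CEBPB and VLDLR were among these 16. An interval wholly below 0 was found for 17.1% of features reaching 10 counts and for 25.5% of those reaching 1000. For intervals wholly above 0 these shares were 18.4% and 28.1%. Within the synthetases, the 7 with a match had a median of -0.03 and the 7 without one -0.15. PSPH, SHMT2, LARS1, VARS1 and YARS1 had no promoter in the table.

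**Figure D2:**
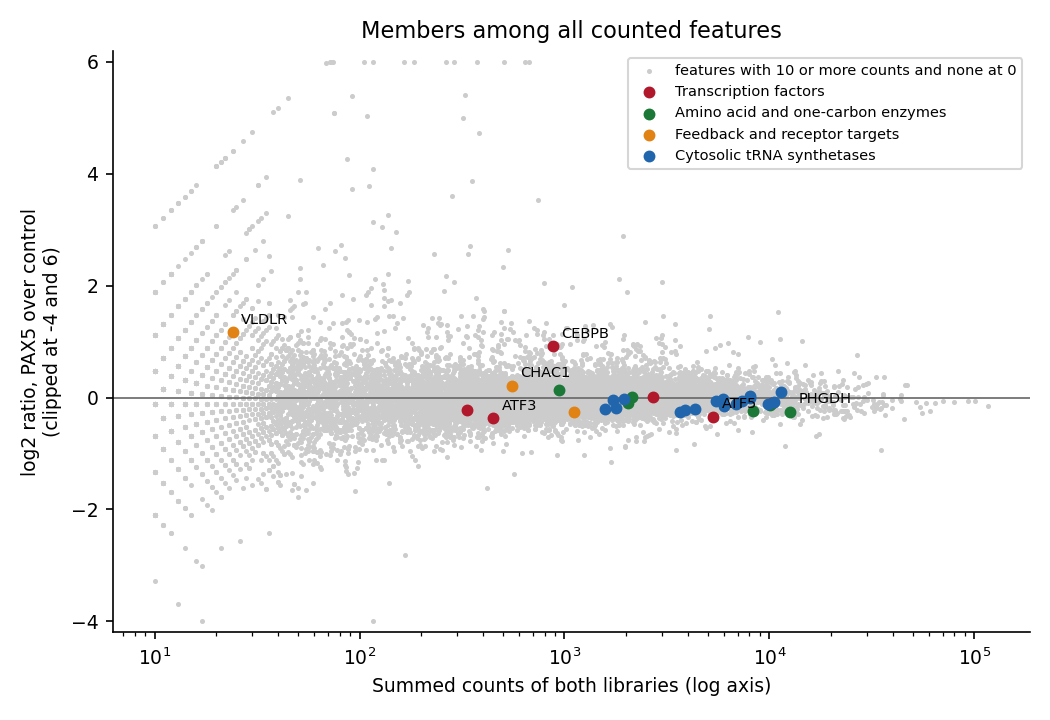
Log2 ratio (PAX5 over control, clipped at -4 and 6) against summed counts on a log axis, with features of at least 10 counts and no library at 0 in grey and the 32 members in colour by role. The synthetases and enzymes lie inside the narrow band of abundant features, CEBPB lies near the upper edge of the cloud at its abundance, and VLDLR lies among weakly counted features where ratios scatter widely.

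Levels between genes were compared per length, as RPKM (counts per 1000 bases of the deposited gene length and per 1000000 scaled counts). By the deposited lengths PHGDH was the highest member in both libraries, with 250.5 RPKM after PAX5 induction and 298 RPKM in the control, where it stood at percentile 98.8 of features. ATF4 came next at 216 and 231 RPKM, then MTHFD2 at 184 and 203. By those lengths the highest synthetase was YARS1 at 133 and 143 RPKM, and the lowest was WARS1 at 21.6 and 24.8. The counting intervals of YARS1 and GARS1 overlapped in the PAX5 library. Over the 17 the median was 72.3 RPKM with PAX5 against 83.8 in the control, whereas the 17 mitochondrial synthetases had medians of 13.7 and 14.0. QARS1 was the median gene of the 17 in both libraries, with a ratio of -0.21, whereas the median of the 17 ratios was -0.08.

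At the low end stood the stress-induced genes. CHAC1 had 16.6 RPKM with PAX5 and 14.3 in the control, DDIT3 11.4 and 13.4, ATF3 6.92 and 8.91, and VLDLR 0.393 and 0.174. CEBPB had 27.1 and 14.3 RPKM, which placed it at rank 25 of 32 with PAX5 and rank 29 in the control. In each library 17 of the 31 neighbouring pairs in the order of levels had overlapping counting intervals, such as AARS1 and IARS1 at 104 RPKM each in the control library. PHGDH, ATF4 and MTHFD2 were separated from each other and from the next gene by more than those intervals in both libraries.

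The deposited length sets these levels. For SARS1 it is 6306 bases, 3.35 times the longest transcript in GENCODE's basic set (1882 bases), and with the latter its level would be 124 RPKM with PAX5 and 130.4 RPKM in the control, in place of 37.1 and 38.9. For VLDLR, MTHFD2 and HARS1 the deposited length is 0.397, 0.513 and 0.562 times the longest transcript, so their levels per length would be lower by that measure. MTHFD2 would be at 94.2 RPKM with PAX5 and 104 in the control. The deposited length of PHGDH is 0.779 times its longest transcript, and the order at the top changes with it: PHGDH would be at 195 RPKM with PAX5, below ATF4 at 216, and at 233 in the control, beside 231 for ATF4. Both ends of the synthetase order change too. With the longest transcripts GARS1 would be highest with PAX5, at 133 RPKM beside 128 for YARS1. HARS1 would be at 20.9 RPKM with PAX5 and 23.7 in the control, beside 20.7 and 23.8 for WARS1. TARS1, with a deposited length 0.661 times the longest transcript, would be at 72.9 and 76.3 RPKM. The ratio between libraries does not depend on the length chosen for a gene.

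**Figure D3:**
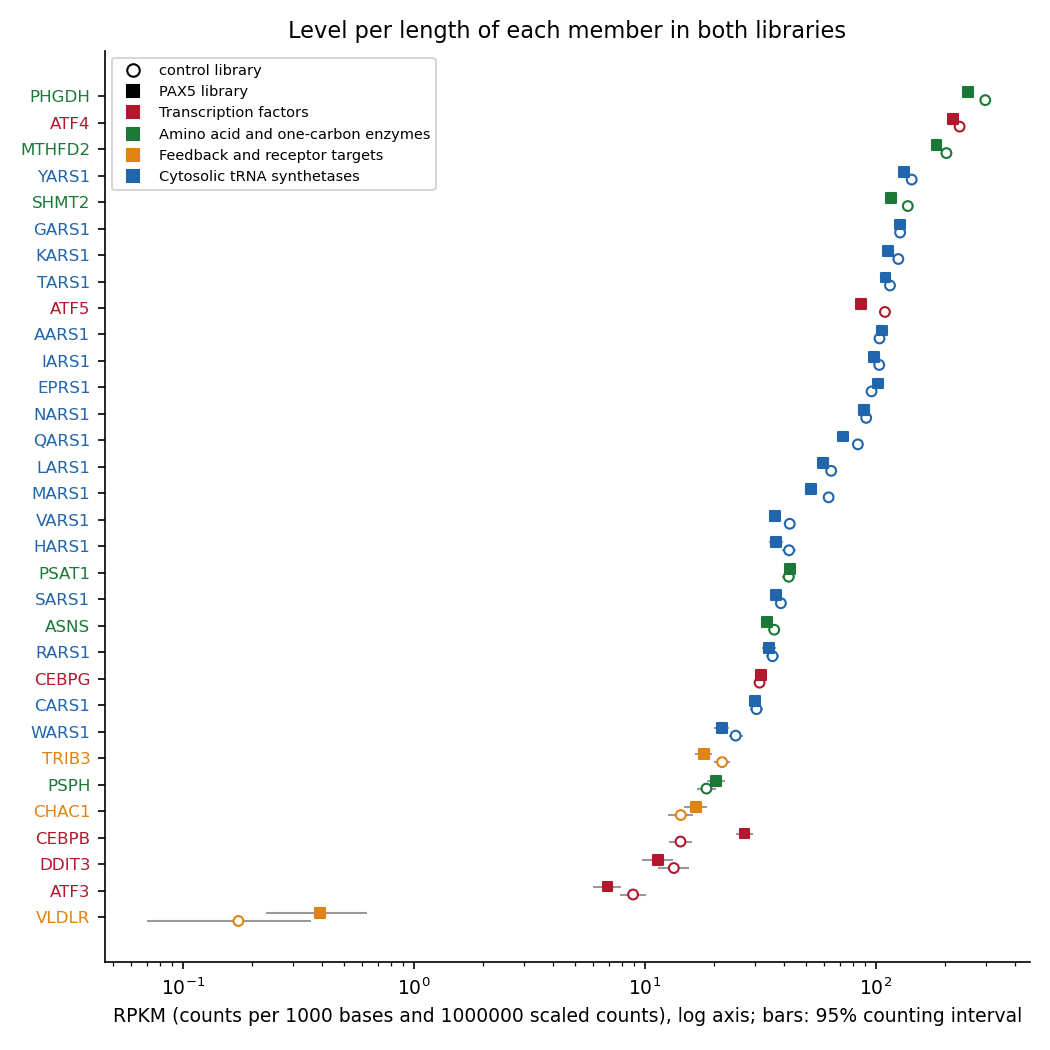
Level of each member in RPKM on a log axis, with control as open circles, PAX5 as filled squares, 95% counting intervals as bars and colour by role. The order runs from PHGDH near 300 (298 in the control library) down to VLDLR below 1 (0.174), and the symbols of the libraries lie close together except for CEBPB and VLDLR.

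Gene length moved with the ratio across all features. Over features with at least 100 counts divided into 10 equal groups by length, the median ratio went from -0.20 in the shortest group (median 941 bases) to 0.19 in the longest (8295 bases). The members had lengths from 1178 to 6306 bases with a median of 2638, and 21 of the 32 fell in length groups 3 to 5, whose medians were -0.08, -0.06 and -0.03. After subtraction of the median of its length group, CEBPB was at 1.01, ATF4 at -0.02, PHGDH at -0.17, ATF5 at -0.28 and MARS1 at -0.22. VARS1 was then the lowest synthetase, at -0.27. The median of all members went from -0.10 to -0.06 and that of the factors from -0.17 to -0.02. That of the synthetases went from -0.08 to -0.10, with 5 of them in length groups whose median was above 0. By the same measure 3 intervals lay above 0, those of CEBPB, PSPH and CHAC1, and 15 lay below, of which 14 were also below 0 before. The share of all features by this centred measure is not given here, so these counts have no background beside them. The intervals of ATF4, HARS1 and EPRS1 then spanned 0.

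**Figure D4:**
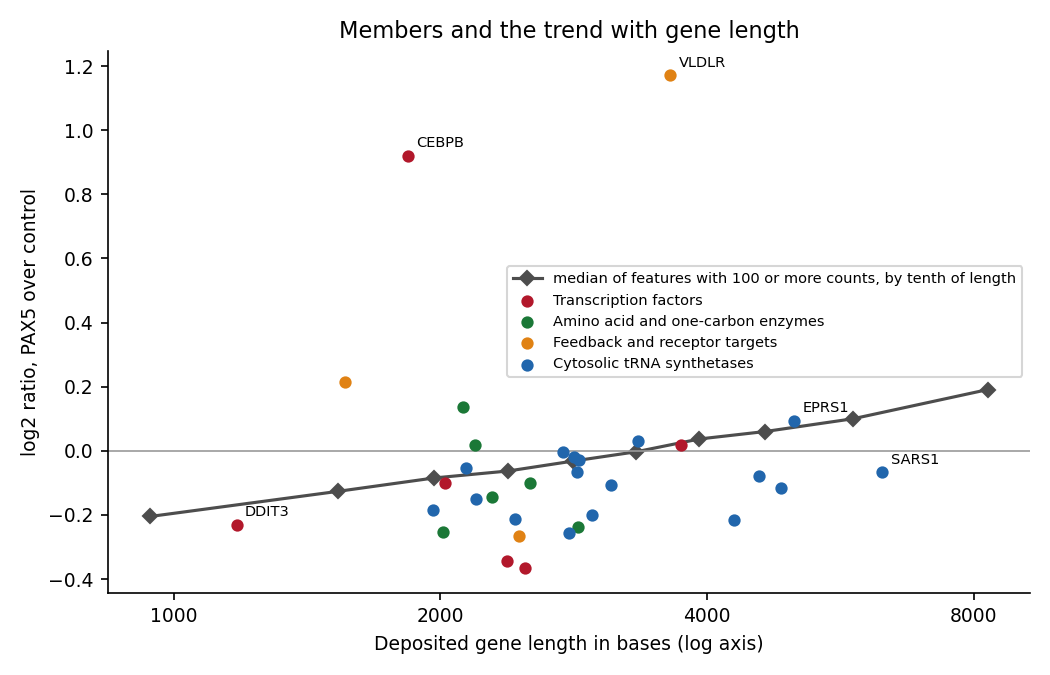
Log2 ratio of the members (PAX5 over control) against deposited gene length in bases on a log axis, with the median of all features with 100 or more counts in each of 10 length groups as the line, which rises from -0.20 to 0.19. EPRS1 lies close to the line, SARS1 (6306 bases) and several other synthetases lie below it, and CEBPB and VLDLR lie far above it.

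The genes that lead to ATF4 were examined from lists of the rest of the pathway. None of the 76 genes in these lists passed the rule of size. Of features with at least 10 counts, 1.33% were higher by that rule and 0.0517% lower. Each count of intervals in the lists below stands beside 18.4% of such features above 0 and 17.1% below. Among the 4 kinases of eIF2, EIF2AK4 (GCN2, the sensor of uncharged tRNA) had 1058 counts against 768 and a ratio of 0.35 (0.22 to 0.49). EIF2AK3 (PERK, the sensor in the endoplasmic reticulum) had 2050 against 2425 and -0.35 (-0.44 to -0.27). These 2 kinases therefore had intervals on opposite sides of 0. EIF2AK1, which senses haem shortage, was at -0.02 (-0.09 to 0.05), and EIF2AK2, which senses double-stranded RNA, at 0.02 (-0.15 to 0.19).

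Of 8 subunits of eIF2 and its exchange factor eIF2B 1 interval lay below 0, EIF2S2 at -0.18 (-0.28 to -0.08), and none above. The next lowest was EIF2B2 at -0.17 (-0.37 to 0.03), and the highest were EIF2B5 at 0.10 (-0.03 to 0.24) and EIF2B3 at -0.02 (-0.24 to 0.19). Of 5 genes for the phosphatase that reverses eIF2 phosphorylation 2 intervals lay above 0, those of the regulatory subunit PPP1R15B at 0.19 (0.10 to 0.29) and the catalytic subunit PPP1CB at 0.12 (0.07 to 0.17). The stress-induced regulatory subunit PPP1R15A was at 0.15 (-0.06 to 0.37), and PPP1CA and PPP1CC were at 0.04 and -0.05.

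Of 25 other ATF4 targets 21 had at least 10 counts, with 3 intervals above 0, 7 below and a median of -0.06. The highest ratio was that of CTH, which makes cysteine from cystathionine, with 103 counts against 58 and 0.72 (0.24 to 1.21). The amino acid transporter SLC38A2 followed with 6322 against 5039 and 0.22 (0.16 to 0.27). The lowest ratios were those of weakly counted genes whose intervals span 0, STC2 with 3 counts against 8 at -1.52 (-4.07 to 0.53) and SLC6A9 with 6 against 12 at -1.11. The 7 intervals below 0 included those of JDP2 at -0.54 (-0.83 to -0.25), SLC1A5 at -0.30 (-0.38 to -0.22) and SLC3A2 at -0.28 (-0.37 to -0.19). GDF15, FGF21, ALDH1L2 and NUPR1 had fewer than 10 counts over both libraries, and NUPR1 had 0 in both. The fixed floor of 3 counts for a library at 0 equals 0.252 CPM with PAX5 and 0.272 CPM in the control. GDF15 and FGF21, secreted products of the response, had 3 counts and 1 count in all.

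Among other synthetase genes, the subunits of the phenylalanine enzyme, FARSA and FARSB, were at -0.21 (-0.32 to -0.10) and -0.27 (-0.38 to -0.15). The scaffold proteins of the multisynthetase complex were at -0.45 (-0.75 to -0.15) for AIMP2, -0.31 (-0.52 to -0.09) for EEF1E1 and -0.07 (-0.21 to 0.06) for AIMP1. AIMP2 and EEF1E1 are short genes, and after subtraction of the length group's median they were at -0.25 and -0.10. Of 17 mitochondrial synthetases 3 intervals were below 0 and 0 were above it, where 17.1% and 18.4% of features were. The median was -0.04. PARS2 at -0.54 (-0.94 to -0.14) and CARS2 at -0.37 (-0.57 to -0.17) were lowest, and LARS2 at 0.22 and YARS2 at 0.11 were highest with intervals that span 0.

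Chaperones and other genes of the unfolded protein response, a branch that meets the ATF4 pathway at EIF2AK3, had a median of 0.00 over 12 genes, with 4 intervals above 0 and 2 below. ERN1, which encodes the stress sensor IRE1, had 110 counts against 74 and 0.46 (0.02 to 0.91), and its target XBP1 had 4765 against 3438 and 0.36 (0.30 to 0.43). SDF2L1 was lowest at -0.52 (-0.89 to -0.15), followed by ATF6 at -0.09 (-0.26 to 0.09), and the chaperones HSP90B1 and HSPA5 were at -0.09 (-0.14 to -0.03) and -0.05 (-0.13 to 0.04).

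**Figure D5:**
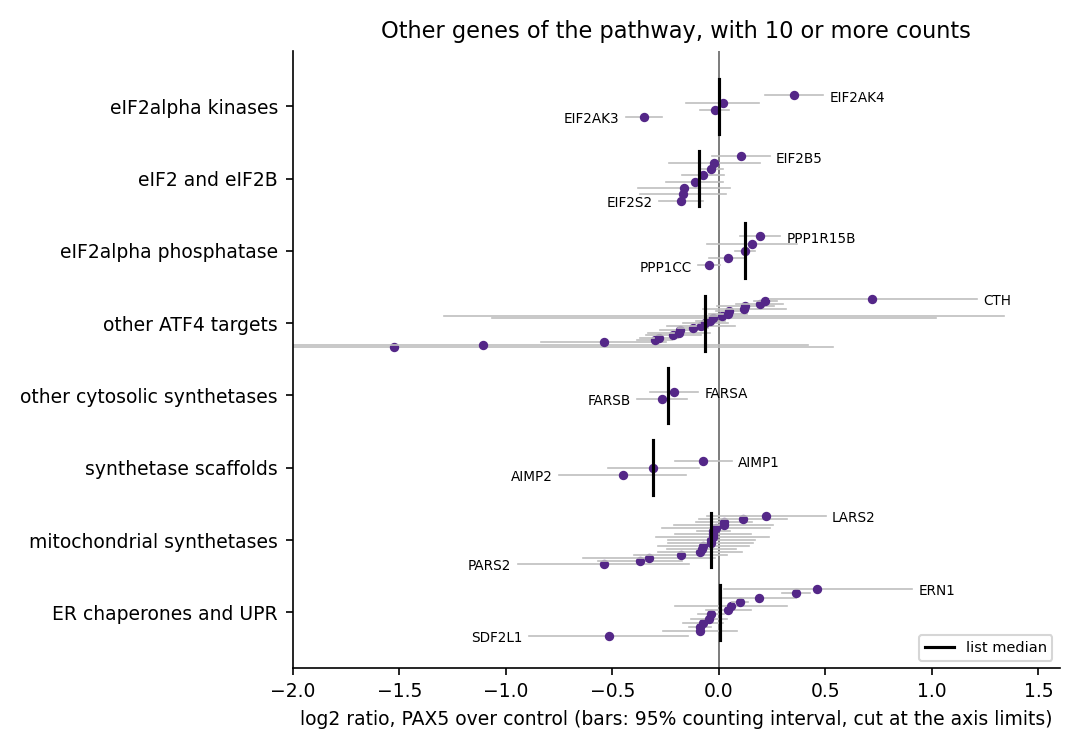
Log2 ratio (PAX5 over control) of the other pathway genes with at least 10 counts, by list, with 95% counting intervals in grey (cut at the axis limits) and the list median as a black line. Medians run from -0.31 for the scaffolds to 0.12 for the phosphatase, and EIF2AK4 and EIF2AK3 lie on opposite sides of 0 at 0.35 and -0.35.

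Exons of 14 members overlap those of another gene in GENCODE, and 8 of these overlap a protein-coding gene. The largest share was on the same strand: 1985 exonic bases of ASNS, 79.7%, are also exonic in the processed transcript AC079781.5, so counting by strand could not separate the pair. The largest shares on the opposite strand were 29.7% of the exonic bases of MTHFD2 with SLC4A5 and 21.9% of those of ATF5 with NUP62. NUP62 had a ratio of -0.05 and SLC4A5 of -0.10, against -0.34 for ATF5 and -0.14 for MTHFD2. DDIT3 and MARS1 are neighbours that share 62 exonic bases on opposite strands, and HARS1 shares 402 with its mitochondrial relative HARS2, which lies head to head with it. How reads in these stretches were assigned is not given in the sources used here.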

How the data were processed

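RNA-seq was done on total RNA of sorted REH cells, 1 library for each of 2 groups, after RNeasy extraction and NEBNext Ultra preparation, per the labels' protocols. The authors deposited raw counts of reads per gene with Entrez numbers and gene lengths, and the submitters' processing notes name featureCounts and the build hg19 (GRCh37). No aligner, version, strand setting or rule for multiply mapping reads is given in the sources used here. The series table and the files of single libraries held the same 51404 values. Groups came from the genotype labels, and symbols from RefSeq (GRCh38.p14, 23696 of 25702 features matched).

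Libraries were scaled by TMM (edgeR 4.0.16, R 4.3.3), with factors of 0.9965 (PAX5) and 1.0036 (control), the only use of edgeR. With 1 library per group no test was possible. Ratios have exact Clopper-Pearson 95% intervals given the gene's summed count (scipy 1.17.1), and RPKM exact Poisson intervals. The floor of 3 counts for a library at 0 was a fixed value and not a bound of these intervals. Intervals cover counting error only and take reads as independent. PCR copies are not independent molecules, so the intervals may be too narrow even for counting error. The size rule needs 10 counts and an interval bound at or beyond 2-fold. The half-width of the interval had a median of 0.09 over members and was 1.43 for VLDLR.

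Members and lists were chosen with earlier results of these data known. Named were PAX5, all members, the 2 highest and 2 lowest measured genes of each other list, and any gene past the size rule. The values of 1 gene of these lists are not reported here. Others named after their values were seen are PPP1CB, HSP90B1, HSPA5, NUP62, SLC4A5, JDP2, SLC1A5, SLC3A2, the markers ITGAM, NKG7 and COL1A1, and the targets under 10 counts. Alternatives were other scaling (total counts, DESeq2 1.42.0 size factors, upper quartile), count minimums of 1 and 50, other bounds, centring on length, an assumed biological coefficient of variation of 0.1, means and the files of single libraries. Promoters came from RefSeq, and exon overlaps and transcript lengths from GENCODE release 29 (GRCh38), with no coordinates of the counted genes taken from it.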

Additional observations from a re-analysis of the deposited data

How the results depend on the processing

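No paired analysis was possible because each group had 1 library and the labels give no replicate numbers, so leaving out a replicate was not possible either. Scaling by total counts, DESeq2 size factors or upper-quartile factors shifted every member by at most 0.02 on the log2 scale, and the count minimums and the files of single libraries shifted none. Under these settings the counts of members by the size rule, the counts of intervals off 0 and the medians stayed within 1.5-fold of their values or within the counting interval. The number of members higher by the size rule went from 0 to 1 at both lower interval bounds tried, 1.5-fold (1) and a smaller one (1), which was CEBPB, and with a point ratio at 2-fold (1), which was VLDLR. With an assumed biological coefficient of variation of 0.1 in both libraries, 1 interval lay above 0 (CEBPB) in place of 2, and 0 lay below in place of 16. Centring on gene length shifted members by at most 0.20 (DDIT3). The shift was more than the counting interval's half-width for 6 (ATF4, PHGDH, MTHFD2, EPRS1, IARS1 and SARS1), which kept their sign. The sign changed for 5 others (CEBPG, CARS1, GARS1, NARS1 and RARS1), whose intervals spanned 0 before. With the mean in place of the median the enzymes and other targets were at 0.060, in place of -0.10, which is due to VLDLR at 1.17 among 9 genes. The depth limits VLDLR most.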
